A study of Mus musculus with 2 samples.

Results

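The 42 genes described here act on mRNA after transcription: they cut and polyadenylate its 3′ end, shorten its tail, decay it, silence it through small RNAs, or bind it and set its fate. They were chosen by gene symbol from a table of read counts, by prefixes such as Cnot, Smg, Ago, Ythdf and Zc3h, and are 42 of the 3134 genes listed there. The prefixes use gene names only, although they were chosen with earlier results of these data known. The table also has its own listing limit: each listed gene reaches at least 100 counts in one library or the other. RefSeq holds 129 mouse protein-coding genes whose symbols match, and the other members of these families are not analysed here. The counts come from enhanced crosslinking and immunoprecipitation (eCLIP) of HP1 alpha, the heterochromatin protein encoded by Cbx5, in NIH3T3, an established mouse fibroblast line. Ultraviolet light joins protein to the RNA it touches, the protein is precipitated with trimmed RNA, and the RNA is sequenced. The HP1 alpha library was made with an antibody to that protein and the input library without antibody, from cells of the same line irradiated at 254 nm and 400 mJ per square centimetre, with RNA taken from membrane 75 kDa above the HP1 alpha band. Each group has 1 library.

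An mRNA receives its 3′ end when the cleavage and polyadenylation factors cut the nascent transcript and a poly(A) tail is added, which cytoplasmic poly(A)-binding proteins then coat. Decay usually begins when the PAN2–PAN3 and CCR4–NOT complexes shorten the tail, after which the cap is removed and XRN1 degrades the body from its 5′ end, or the exosome degrades it from its 3′ end. Nonsense-mediated decay, Argonaute proteins loaded with microRNAs, and sequence-specific binders feed mRNAs into these steps.

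Over all listed genes the HP1 alpha library holds 513965 counts, against 830031 of the input, which are sums over listed genes and not sequencing depths. Of 12 fibroblast markers 7 were listed, among them Col1a1, Fn1 and Vim, while markers such as Thy1 and Pdgfra were not in the table used here, and of 12 immune, epithelial and endothelial markers 0 were listed. Levels are given as CPM, counts per 1000000 listed counts of the same library, and the ratio of HP1 alpha over input carries an exact 95% interval for counting error. A single library stands for each group, so no replicate spread was available to test a ratio against, and no p-value is given. In RNA pooled from a culture, fewer cells with a transcript and less transcript per cell cannot be told apart.

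None of the 42 genes differed by 2-fold between the libraries, where few of all listed genes did. Most of the 42, like most listed genes, were somewhat lower in the HP1 alpha library. The call required a ratio past 2-fold and an interval that excluded 1: 0 of 42 were higher, where 2.36% of all listed genes were, and 0 were lower, where 0.83% were. By the interval alone, 3 of 42 lay above 1 and 17 lay below it, against 15.4% and 32.6% of all listed genes, and 22 had intervals that held 1. The median log2 ratio was -0.31 for the 42 genes and -0.21 for all listed genes, and 14 of 42 ratios exceeded 1 (33.3%, against 30.9% of all listed genes). Together the 42 genes held 6986 counts in the HP1 alpha library against 12265 in the input, or 1.36% (1.33 to 1.39, exact binomial) and 1.48% (1.45 to 1.50) of the listed totals, a ratio of 0.920 (0.893 to 0.947). The ratios ran between 0.606 for Pabpc4 and 1.61 for Msi2. Scaling mattered for the split. TMM factors added 0.20 to every log2 ratio and moved the interval counts to 11 above and 8 below 1. Of all listed genes, 23.3% lay above 1 and 13.7% below it with these factors. DESeq2 size factors, which added 0.21, moved the counts to 11 and 7, against 23.9% and 12.4% of all listed genes.

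**Figure D1:**
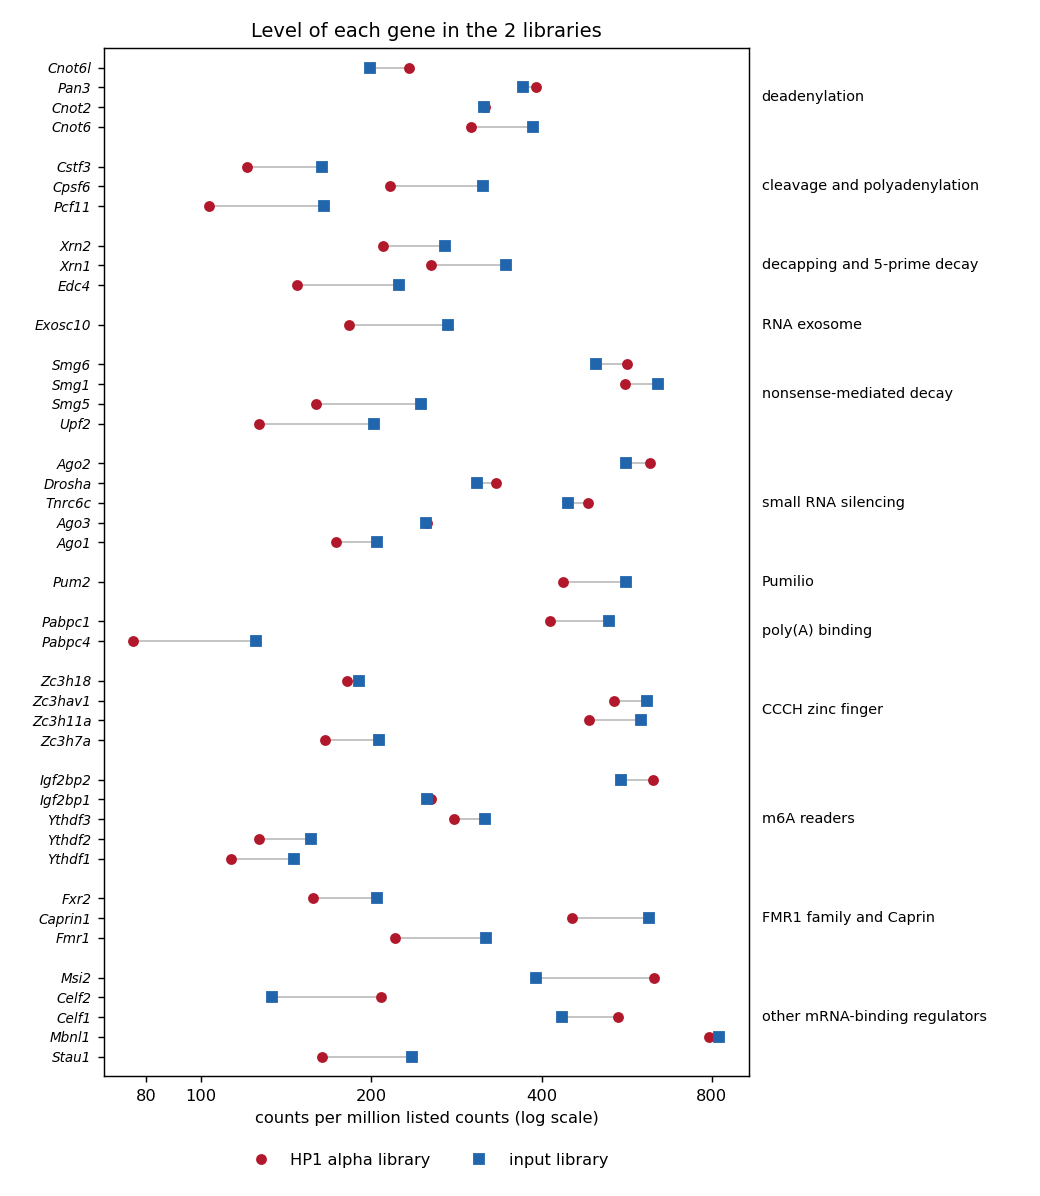
Level of 40 of the 42 genes in CPM (log axis), with the HP1 alpha library as circles and the input library as squares, ordered by role and, within a role, by ratio. The levels run between 75.9 CPM (Pabpc4, HP1 alpha library) and 825 CPM (Mbnl1, input library), and the wide gaps with the circle on the right belong to Msi2, Celf2 and Celf1.

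**Figure D2:**
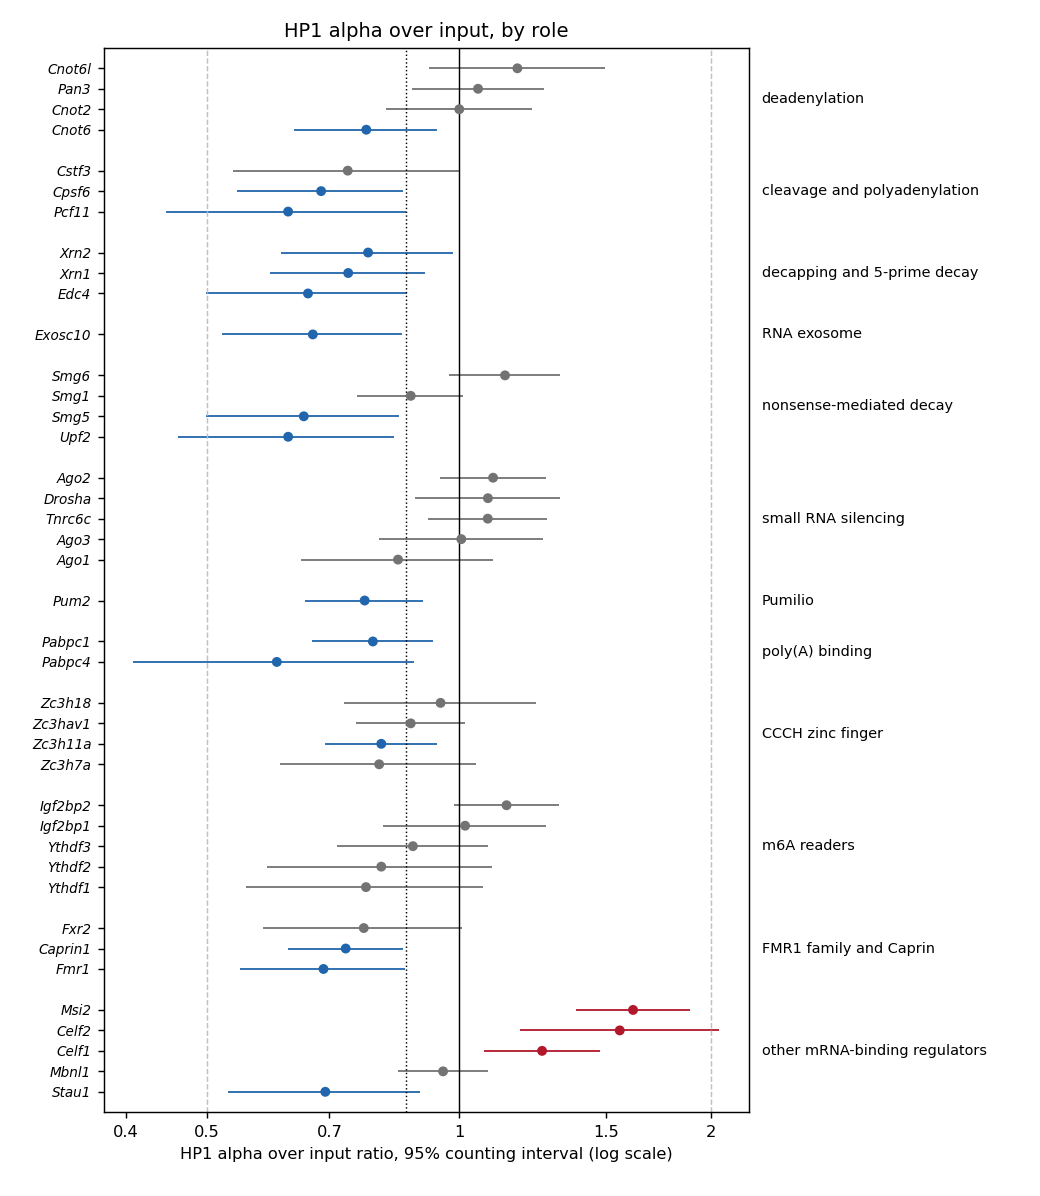
HP1 alpha over input ratio of 40 of the 42 genes with its 95% counting interval (log axis), coloured where the interval lies above 1 (red) or below 1 (blue). The solid line marks 1, the dotted line the median of all listed genes at 0.865 and the dashed lines 2-fold. The 3 genes above 1 are all in the lowest block, and no point lies beyond a dashed line.

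Against 32.6% of all listed genes, 2 of the 3 genes of 3′ end formation had intervals below 1. Their median log2 ratio was -0.54, and -0.35 with TMM factors, but Pcf11 and Cstf3 were listed through the input alone, so the listing limit bears on this median. Cpsf6, a subunit of the cleavage factor that binds upstream of the cut site, had 111 counts in the HP1 alpha library against 262 in the input, and a ratio of 0.684 (0.543 to 0.857). Pcf11, which links cleavage to termination by RNA polymerase II, had 53 counts against 137 and a ratio of 0.625 (0.446 to 0.864). With an HP1 alpha count this low, the listing limit on the input count by itself fixed a ratio below 1. Cstf3, the scaffold subunit of the cleavage stimulation factor, had 62 counts against 136, and its ratio of 0.736 had an interval that reached 1 (0.536 to 1.00). For Cstf3 the listing limit allowed a ratio of at most 1.00. The genes lie on different chromosomes: Cpsf6 on chromosome 10 from 117344667 to 117376998, Cstf3 on chromosome 2 from 104590484 to 104665425, and Pcf11 on chromosome 7 from 92643458 to 92670080 (GRCm38.p6).

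The promoters of these 3 genes, which act together at the 3′ end, are shown so that they can be compared: for each, the 250 bases upstream of an annotated start (RefSeq, build GRCm38.p6, each read 5′ to 3′ on the strand of its gene). The starts used for Cpsf6 and Pcf11 lie inside the spans given above, so their windows reach into the gene. Capitals mark the GC box GGGCGG on either strand, which reads CCGCCC on the other.
Cpsf6 (chr10:117376974-117377223, minus strand): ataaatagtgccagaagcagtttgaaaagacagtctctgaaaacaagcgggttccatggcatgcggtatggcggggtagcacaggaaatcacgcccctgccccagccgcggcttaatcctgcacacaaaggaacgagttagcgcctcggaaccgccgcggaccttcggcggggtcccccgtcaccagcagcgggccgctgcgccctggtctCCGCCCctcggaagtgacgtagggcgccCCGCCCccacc
Cstf3 (chr2:104590234-104590483, plus strand): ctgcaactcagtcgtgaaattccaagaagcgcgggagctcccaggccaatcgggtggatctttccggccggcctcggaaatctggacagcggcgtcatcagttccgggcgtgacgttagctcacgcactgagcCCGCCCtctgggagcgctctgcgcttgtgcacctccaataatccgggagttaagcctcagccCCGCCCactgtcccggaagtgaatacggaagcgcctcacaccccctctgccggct
Pcf11 (chr7:92669913-92670162, minus strand): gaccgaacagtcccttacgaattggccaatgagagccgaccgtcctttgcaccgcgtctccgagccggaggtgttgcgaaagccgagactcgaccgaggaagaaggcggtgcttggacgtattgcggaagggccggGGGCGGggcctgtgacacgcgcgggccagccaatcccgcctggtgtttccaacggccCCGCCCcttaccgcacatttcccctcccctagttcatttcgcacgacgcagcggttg
Each window held 2 GC boxes and between 22 and 28 CpG dinucleotides, at 62.8% to 64.4% G and C. Such promoters were common in the whole table. At least 1 GC box was present in 68.5% of the 54 promoter windows found for 36 of the 42 genes, in 63.2% of the 3435 windows of all listed genes and in 32.7% of all 32851 RefSeq windows. The median G and C content was 68.4% for the 42 genes, against 62.4% for all listed genes and 52.4% for all windows, so the listed genes as a whole had richer promoters than the annotation.

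Deadenylation genes stood near 1 with a single exception. Cnot6, a catalytic deadenylase of the CCR4–NOT complex, had 154 counts in the HP1 alpha library against 321 in the input, and a ratio of 0.775 (0.635 to 0.942). Its close relative Cnot6l, which encodes the alternative deadenylase of the same complex, had 120 counts against 165 and a ratio of 1.17 (0.921 to 1.49). The interval of Cnot6l held 1 under the main scaling, whereas with TMM factors and DESeq2 size factors it lay above 1 and that of Cnot6 held 1. Cnot2, a structural subunit of the complex, had 163 counts against 263 and a ratio of 1.00 (0.818 to 1.22). Pan3, which guides the PAN2 deadenylase to tails, had 201 counts against 308 and a ratio of 1.05 (0.878 to 1.26). Pan3 also had an interval above 1 with TMM and DESeq2 scaling. Over the 4 genes the median log2 ratio was 0.040, and 0.24 with TMM factors. Another CCR4–NOT subunit gene is listed under its older symbol Rqcd1, now Cnot9, which the choice by symbol does not reach and whose value was seen first; it had 53 counts against 125 and a ratio of 0.685 (0.487 to 0.951), below 1 by the listing limit alone.

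All 3 genes of decapping and 5′ decay had intervals below 1, where 32.6% of all listed genes did. The median log2 ratio of the 3 was -0.44. Edc4, the scaffold that brings the decapping enzyme to its activators, had 76 counts in the HP1 alpha library against 186 in the input, and a ratio of 0.660 (0.499 to 0.866). Edc4 was listed through the input alone. Xrn1, the cytoplasmic 5′ exonuclease, had 131 counts against 287 and a ratio of 0.737 (0.595 to 0.909). Xrn2, the nuclear 5′ exonuclease that follows RNA polymerase II after cleavage, had 108 counts against 224 and a ratio of 0.779 (0.613 to 0.984). Relative to genes of like span, described further on, Edc4 had 0.921 (0.696 to 1.21) and Xrn2 had 0.877 (0.691 to 1.11). On that scale only Xrn1 kept an interval below 1. Each of the 3 was lower in the HP1 alpha library, although with TMM factors only Edc4 kept an interval below 1 and with DESeq2 size factors none did. Exosc10, the nuclear exonuclease of the exosome and the only exosome gene among the 42, had 94 counts against 227 and a ratio of 0.669 (0.520 to 0.854). Its interval stayed below 1 under both of these scalings. Exosc10 was listed through the input alone, and relative to genes of like span its interval held 1, at 0.842 (0.655 to 1.08).

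The genes of nonsense-mediated decay had ratios on both sides of 1 under the main scaling. Upf2, which bridges UPF1 to the exon junction complex, had 65 counts in the HP1 alpha library against 168 in the input, and a ratio of 0.625 (0.462 to 0.837). Smg5, an adaptor that recognises phosphorylated UPF1, had 82 counts against 203 and a ratio of 0.652 (0.498 to 0.847). Upf2 and Smg5 kept intervals below 1 under TMM and DESeq2 scaling. Both were listed through the input alone. Relative to genes of like span, described further on, Smg5 had 0.820 (0.627 to 1.07) and Upf2 had 0.632 (0.467 to 0.846). Smg1, the kinase that phosphorylates UPF1, had 289 counts against 533 and a ratio of 0.876 (0.756 to 1.01), which turned above 1 with TMM factors and DESeq2 size factors. Smg6, the endonuclease of the pathway, had 291 counts against 414 and a ratio of 1.14 (0.974 to 1.32). Its interval lay above 1 with TMM factors, DESeq2 size factors and the authors' constant, while relative to genes of like span, described further on, its ratio was 0.861 (0.738 to 1.00).

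None of the 5 genes of small RNA silencing had an interval that excluded 1, where 1627 of the 3134 listed genes had intervals that held 1. Ratios above 1 were found in 4 of the 5, against 30.9% of all listed genes. Ago3, Drosha and Tnrc6c span over 100 kb, where 72.2% of all listed genes had ratios above 1. Relative to genes of like span, described further on, the 5 ratios ran between 1.02 and 1.22, and only Ago2 had an interval above 1. Ago2, the Argonaute with slicer activity, had 319 counts in the HP1 alpha library against 469 in the input, and a ratio of 1.10 (0.950 to 1.27). Ago3 had 129 counts against 207 and a ratio of 1.01 (0.801 to 1.26), and Ago1 had 89 counts against 170 and a ratio of 0.845 (0.647 to 1.10). Ago3 and Ago1 are neighbours on chromosome 4, 3.34 kb apart, and both encode proteins that carry microRNAs. Drosha, the nuclear enzyme that releases microRNA hairpins from primary transcripts, had 171 counts against 255 and a ratio of 1.08 (0.887 to 1.32). Tnrc6c, a GW182 protein that connects Argonaute to the deadenylases, had 248 counts against 370 and a ratio of 1.08 (0.918 to 1.27). The median log2 ratio was 0.12 under the main scaling and 0.31 with TMM factors. With TMM factors Ago2, Drosha and Tnrc6c had intervals above 1, as did 23.3% of all listed genes.

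Pum2, a Pumilio gene whose protein binds a UGUA-centred element and promotes repression of the mRNA, had 224 counts in the HP1 alpha library against 469 in the input, and a ratio of 0.771 (0.655 to 0.906). Its interval lay below 1 under the main scaling and held 1 with TMM factors and with DESeq2 size factors.

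Both genes of cytoplasmic poly(A)-binding proteins had intervals below 1 under the main scaling, and neither did with TMM factors or DESeq2 size factors. Of all listed genes 32.6% had intervals below 1 under the main scaling. Relative to genes of like span, described further on, Pabpc1 stood at 1.07 (0.901 to 1.26) and Pabpc4 at 0.783 (0.527 to 1.14). Pabpc1, the main protein on mRNA tails, had 213 counts in the HP1 alpha library against 436 in the input, and a ratio of 0.789 (0.667 to 0.932). Pabpc1 has near-identical retrocopies, and how reads that fit several places were handled is not given in the sources used here, so its counts are uncertain. Pabpc4, a related protein, had 39 counts against 104, the lowest count of the 42 genes in either library, and its ratio of 0.606 (0.408 to 0.883) was held below 1 by the listing limit.

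The 4 genes of CCCH zinc finger proteins had ratios under 1, where 30.9% of all listed genes had ratios above it. Of the 4, 1 had an interval below 1, against 32.6% of all listed genes. Relative to genes of like span, described further on, the 4 ratios ran between 0.974 and 1.15, and each interval held 1. Zc3h11a, a factor tied to mRNA export, had 249 counts in the HP1 alpha library against 498 in the input, and a ratio of 0.807 (0.691 to 0.942). Its span holds the gene Zbed6, which had 117 counts against 181 and a ratio of 1.04 (0.820 to 1.32), so reads may be shared between them. Zc3hav1, the antiviral protein ZAP, which recognises CpG-rich RNA, had 276 counts against 509 and a ratio of 0.876 (0.754 to 1.02). Zc3h7a had 85 counts against 171 and a ratio of 0.803 (0.611 to 1.05). Zc3h18, which connects the cap-binding complex to nuclear decay, had 93 counts against 158 and a ratio of 0.951 (0.728 to 1.24). The interval of Zc3h11a held 1 with TMM and DESeq2 scaling. The ratios of Zc3h18 and Zc3hav1 turned above 1 with TMM factors and with DESeq2 size factors.

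The m6A readers, proteins that bind N6-methyladenosine in mRNA, had no interval that excluded 1 under the main scaling. Of the 3134 listed genes, 1627 had intervals that held 1. Ythdf1 had 58 counts in the HP1 alpha library against 121 in the input, and a ratio of 0.774 (0.556 to 1.07) that the listing limit held below 1. Ythdf2, the reader best known for recruiting deadenylases, had 65 counts against 130 and a ratio of 0.807 (0.590 to 1.10). Ythdf3 had 144 counts against 264 and a ratio of 0.881 (0.714 to 1.08). These 3 readers overlapped in their intervals and could not be ordered at this depth. Igf2bp1 and Igf2bp2, which stabilise bound mRNAs, had higher ratios, with intervals that overlapped those of the other 3 readers. Igf2bp1 had 131 counts against 208, a ratio of 1.02 (0.811 to 1.27), and Igf2bp2 had 324 against 459, a ratio of 1.14 (0.986 to 1.32). Relative to genes of like span, described further on, the 5 ratios ran between 1.00 and 1.22, and each interval held 1. The interval of Igf2bp2 lay above 1 with TMM factors, DESeq2 size factors and the authors' constant. The median log2 ratio of these 5 genes was -0.18, which turned to 0.017 with TMM factors and 0.029 with DESeq2 size factors.

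Of the fragile X family and its partner Caprin1, 2 of 3 genes had intervals below 1, where 32.6% of all listed genes did. Caprin1, a stress granule protein that binds G3BP1, had 233 counts in the HP1 alpha library against 514 in the input, and a ratio of 0.732 (0.624 to 0.856). Fmr1, the translational repressor lost in fragile X syndrome, had 113 counts against 265 and a ratio of 0.689 (0.548 to 0.861). Both kept intervals below 1 under TMM and DESeq2 scaling. Fxr2, a paralogue of Fmr1, had 81 counts against 170 and a ratio of 0.769 (0.583 to 1.01). Their median log2 ratio was -0.45. Relative to genes of like span, described further on, all 3 intervals held 1.

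Of the 42 genes, 3 had intervals above 1 under the main scaling, where 15.4% of all listed genes did: Msi2, Celf2 and Celf1. All 3 belong to a group of other mRNA-binding regulators. Relative to genes of like span, described further on, only Celf1 of the 3 kept an interval above 1. Msi2, a Musashi protein that regulates translation in stem and progenitor cells, had 325 counts in each library, which is 632 CPM in the HP1 alpha library against 392 CPM in the input and a ratio of 1.61 (1.38 to 1.89). Celf2, a regulator of splicing and mRNA stability, had 107 counts against 111 and a ratio of 1.56 (1.18 to 2.05). Celf1, which binds GU-rich elements and promotes decay, had 281 counts against 361 and a ratio of 1.26 (1.07 to 1.47). The other two genes of this group differed: Mbnl1, the muscleblind splicing factor, had 406 counts against 685 and a ratio of 0.957 (0.845 to 1.08), and Stau1, a binder of double-stranded RNA in Staufen-mediated decay, had 84 counts against 196 and a ratio of 0.692 (0.529 to 0.898), whose interval held 1 with TMM and DESeq2 scaling.

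Ratios among the 42 genes followed gene span, the distance between a gene's first and last base with introns included. All 9 genes of up to 30 kb, such as Edc4 and Pabpc1, had ratios below 1, with a median of 0.669, against 0.759 for all listed genes of that size. Of the 12 genes between 30 and 60 kb, 1 had a ratio above 1, Igf2bp1, and the median was 0.805 (0.820 for all listed genes). The median was 0.900 for the 8 genes between 60 and 100 kb, where 4 ratios were above 1, and 1.08 for the 13 genes over 100 kb, where 9 were (0.906 and 1.18 for all listed genes). Ratios above 1 were found in 6.65%, 16.8%, 36.3% and 72.2% of all listed genes in these size classes, from shortest to longest. Msi2 spans 379 kb on chromosome 11 from 88339382 to 88718306 and Celf2 spans 857 kb on chromosome 2 from 6539694 to 7396341, which makes them the longest of the 42. Across the 42 genes, which share the same 2 libraries, Pearson's r between log10 span and log2 ratio was 0.76 and Spearman's rho 0.68, and without Celf2 and Msi2 they were 0.65 and 0.63. Over all 3089 listed genes with a known span, r was 0.60 and rho 0.61. Summed counts also went with the ratio in the 42 genes (r 0.41, rho 0.46), and the part of depth was not tested. Whether reads were counted over exons or over whole gene bodies is not given in the sources used here.

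**Figure D3:**
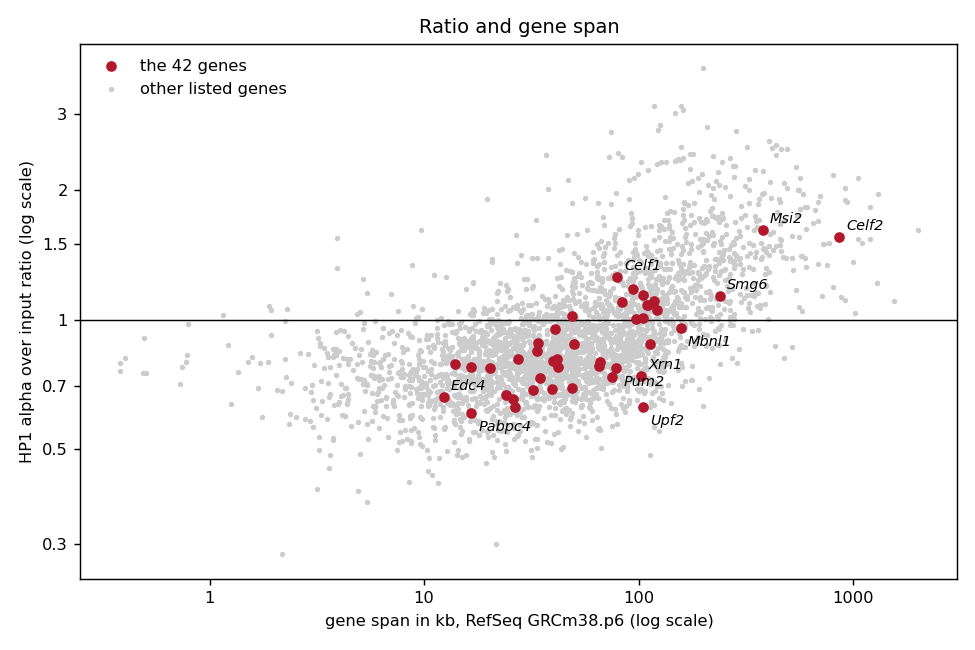
HP1 alpha over input ratio against gene span in kb (both axes log), with the 42 genes in red and all other listed genes with a known span in grey. The red points rise with span in the same band as the grey ones. Msi2 and Celf2 lie at the upper right, and Upf2 and Xrn1 in the lower part of the band at about 100 kb.

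Each ratio was therefore also divided by the median ratio of the 200 listed genes nearest to it in span, a value in which the scaling of the libraries cancels. On this scale 36 of the 42 intervals held 1, 2 lay above it and 4 below, where 15.6% and 11.4% of all listed genes did, and 0 passed 2-fold in either direction (1.23% higher and 0.129% lower among all listed genes). Celf1, on chromosome 2 from 90940259 to 91019497, stood highest at 1.39 (1.18 to 1.62) times genes of like span, and Ago2, on chromosome 15 from 73101625 to 73184947, had 1.22 (1.06 to 1.41). Msi2 and Celf2 did not keep their distance, with 1.14 (0.976 to 1.34) for Msi2 and 1.08 (0.817 to 1.42) for Celf2. Among all 42 genes Upf2, on chromosome 2 from 5951447 to 6056703, was lowest at 0.632 (0.467 to 0.846). Upf2 had 65 counts in the HP1 alpha library and was listed through the input alone, so its plain ratio could reach at most 1.05. Xrn1, on chromosome 9 from 95954750 to 96057806, had 0.744 (0.600 to 0.917), Mbnl1 had 0.825 (0.728 to 0.935) and Pum2 had 0.849 (0.721 to 0.997). Upf2 and Xrn1 each span over 100 kb yet had the ratios of much shorter genes, while Mbnl1, near 1 in the plain ratio, was low for a gene of 157 kb. The median of the 42 genes was -0.029 on the log2 scale, against 0.0086 for all listed genes. By role the 3′ end formation genes had a median of -0.30, the nonsense-mediated decay genes -0.22, the small RNA silencing genes 0.12 and the m6A readers 0.15, with no m6A reader and no 3′ end formation gene having an interval that excluded 1.

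**Figure D4:**
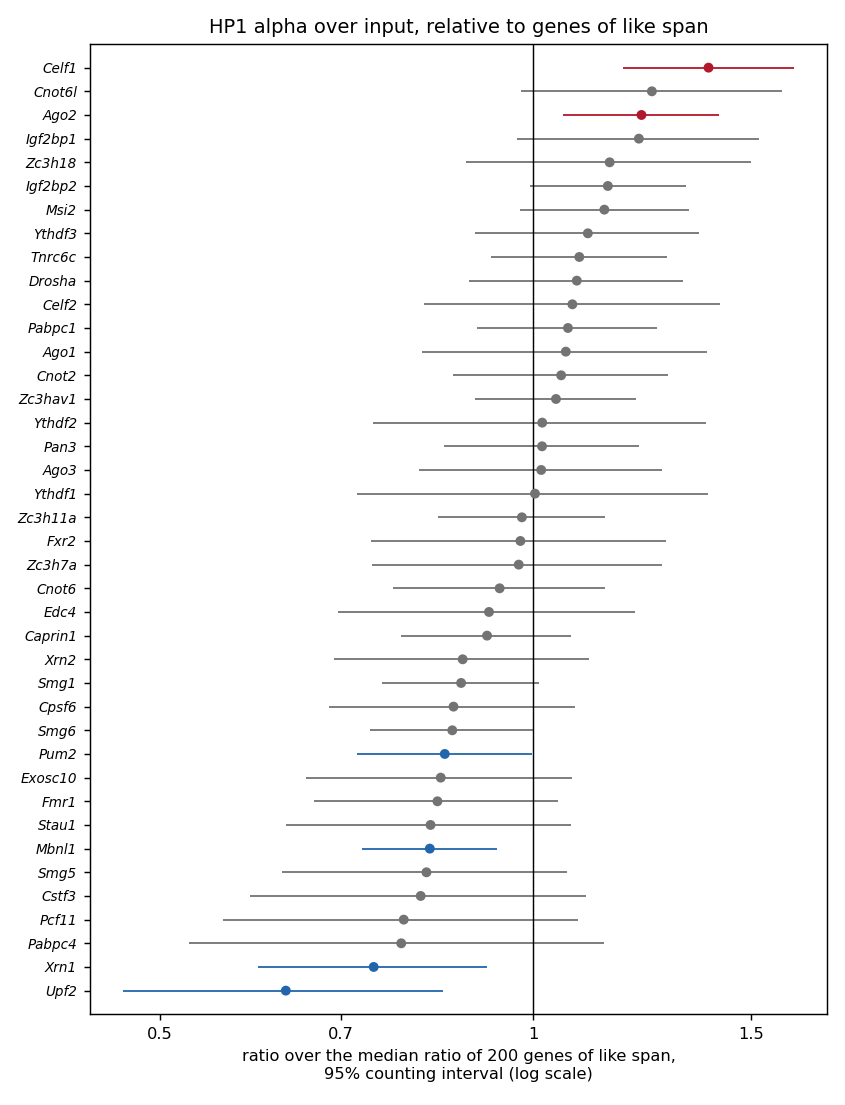
Ratio of 40 of the 42 genes divided by the median ratio of the 200 listed genes nearest in span, with its 95% counting interval (log axis), coloured where the interval lies above 1 (red) or below 1 (blue). Celf1 and Ago2 are the 2 genes above 1, and Pum2, Mbnl1, Xrn1 and Upf2 the 4 below it.

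Related genes allow the same comparison within a protein family. In 9 families, 13 pairs were compared, and the gene with the longer span had the higher ratio in 9 of them. In 2 pairs the quotient of the longer gene's ratio over the shorter gene's had a 95% interval that excluded 1, and in both the longer gene was higher. Smg6, of 239 kb, stood 1.74 (1.28 to 2.37) times above Smg5, of 26.1 kb. Genes of like span differed by 1.66 times in this pair, so Smg6 and Smg5 were separated about as far as their spans were in the whole table. The quotient was 1.52 (1.11 to 2.08) for Cnot6l over Cnot6, where genes of like span gave 1.14. Relative to genes of like span, 0 of the 13 pairs kept an interval that excluded 1, and Cnot6l over Cnot6 stood at 1.33 (0.968 to 1.82). The shorter gene was higher for Pabpc1 and Pabpc4, for Xrn2 and Xrn1, for Fxr2 and Fmr1, and for Ago2 and Ago3, each with an interval that held 1. The pairs within a family share genes and are not independent.

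**Figure D5:**
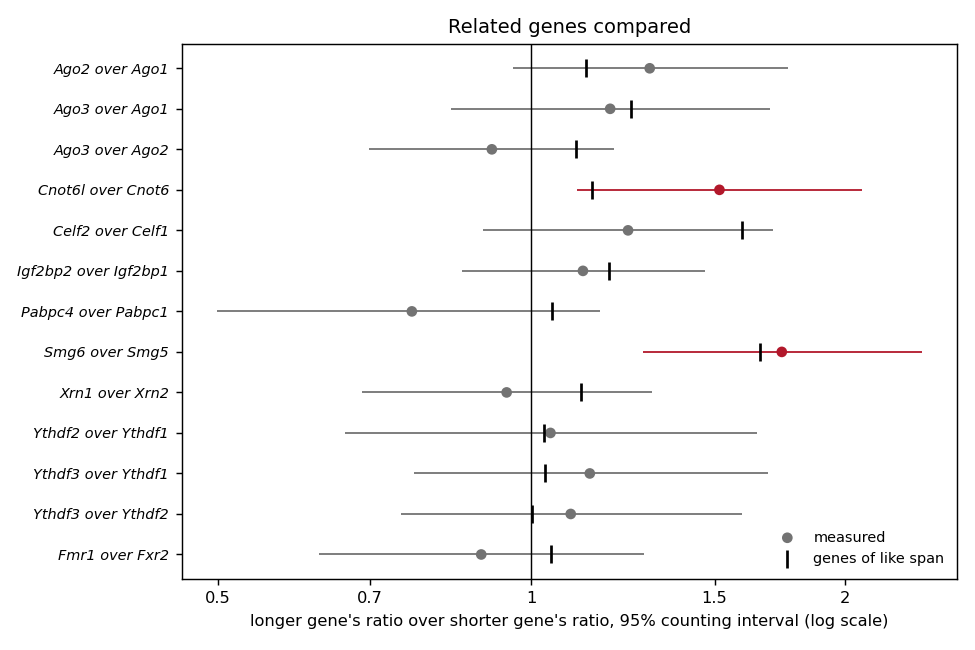
Quotient of the longer gene's HP1 alpha over input ratio and the shorter gene's, for 13 pairs of related genes, as points with 95% counting intervals (log axis), red where the interval excludes 1. Black ticks give the same quotient for genes of like span. The red pairs are Cnot6l over Cnot6 and Smg6 over Smg5, and in both the tick lies inside the interval.

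Other genes of these pathways, listed by hand without the prefixes, had a smaller share of ratios above 1 than the whole table. Of 85 such genes 34 were in the table, of which 4 had a ratio above 1 (11.8%, against 30.9% of all listed genes). In the HP1 alpha library 18 of the 34 had fewer than 100 counts, against 1433 of all 3134. These 18 were listed through the input alone. By 2-fold, 0 were higher and 0 lower, against 2.36% and 0.83% of all listed genes. By interval, 2 of 34 lay above 1 and 17 below (5.88% and 50%), against 15.4% and 32.6% of all listed genes, and the median log2 ratio was -0.34, against -0.21. Fto, an m6A demethylase gene, had 689 counts in the HP1 alpha library against 679 in the input, and a ratio of 1.64 (1.47 to 1.82). The second gene above 1, Dis3l2, an exonuclease of uridylated RNA that was chosen after its value was seen, had 98 counts against 113 and a ratio of 1.40 (1.06 to 1.85). Both span about as much as Msi2, with 355 kb for Fto and 348 kb for Dis3l2. G3bp1, the stress granule partner of Caprin1, had 162 counts against 355 and a ratio of 0.737 (0.608 to 0.890), close to that of Caprin1. Both have similar spans, of 31.2 kb for G3bp1 and 34.7 kb for Caprin1. Relative to genes of like span, G3bp1 had 0.933 (0.770 to 1.13) and Caprin1 had 0.918 (0.783 to 1.07). Zfp36l2, which brings deadenylases to AU-rich elements, had 175 counts against 361 and a ratio of 0.783 (0.650 to 0.940). The ratios of Atxn2, Larp1 and Larp4b, at 0.908, 0.899 and 0.946, had intervals that held 1. Relative to genes of like span, 12 of the 34 ratios exceeded 1, against 1567 of 3089 over all listed genes with a known span.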

How the data were processed

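eCLIP libraries of HP1 alpha and of input, 1 each, were compared. The deposited read counts per gene are whole numbers. Per the submitters' processing notes, STAR 2.6.0c, featureCounts and GRCm38 were used; counting settings are not given. The authors also deposited a fold column, equal to the quotient of both counts multiplied by 1.66 throughout and corrected for mapped reads per the file headers. Column names say MEF where the labels say NIH3T3, and mock where they say input. The number of other sample columns was 0.

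Counts were divided by library totals of listed genes, and exact Clopper-Pearson 95% intervals came from the binomial split of both counts (scipy 1.17.1). They cover counting error only, and PCR copies may be included. Among the 42 genes the upper bound was between 1.28 and 2.16 times the lower. Quotients of 2 ratios carry conditional exact intervals. Log2 ratios used a pseudocount of 0.5. Positions came from RefSeq GRCm38.p6: 2969 genes matched by symbol, 120 by synonym, 45 not. TMM (edgeR 4.0.16) and DESeq2 1.42.0 size factors were alternatives. Members, role lists, families and motifs were chosen with earlier results of these data known. Any of the 42 genes could be named; of the other pathway genes, those past 2-fold and the 6 with the highest summed counts. The TATA box, CCAAT box, ETS, NRF1 and YY1 motifs were also searched and are not described. Of the 42 genes, 2 enter all counts and medians but are not reported here by themselves.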

Additional observations from a re-analysis of the deposited data

How the results depend on the processing

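No paired analysis was possible because the design holds a single pair of libraries. The counts of genes past 2-fold stayed at 0 in both directions under all 9 alternatives. The number of intervals above 1, 3 as reported, was 11 with TMM factors, 11 with DESeq2 size factors and 5 with the authors' constant. Of all listed genes, 15.4% lay above 1 as reported, and 23.3%, 23.9% and 16.7% under these settings in the same order. The number below 1, 17 as reported, was 8 with TMM factors, 7 with DESeq2 size factors, 4 relative to genes of like span, and 7 of the 21 genes left with a minimum of 400 counts. Over all listed genes the share below 1, 32.6% as reported, was 13.7%, 12.4%, 11.4% and 34.2% in the same order. The median log2 ratio of -0.31 was -0.11 with TMM factors, -0.096 with DESeq2 size factors, -0.029 relative to genes of like span, -0.19 with at least 200 summed counts required and -0.062 with at least 400. Over all listed genes the median of -0.21 was -0.0079 with TMM factors and 0.0040 with DESeq2 size factors. It was 0.0086 relative to genes of like span, -0.16 with at least 200 summed counts and -0.073 with at least 400. Relative to genes of like span, 8 of the 42 ratios changed side of 1: Smg6 turned to 0.861 and Pabpc1 to 1.07, and Ago1, Ythdf1, Ythdf2, Ythdf3, Zc3h18 and Zc3hav1, whose intervals had held 1, turned to between 1.00 and 1.15. TMM and DESeq2 add a constant to every log2 ratio, and the minimums leave fewer genes; why span and ratio go together was not tested. Of the single ratios, 2 left their counting interval with TMM factors, 5 with DESeq2 size factors and 10 besides Pabpc1 relative to genes of like span, and none under the other alternatives. The 3′ end formation median could not be formed at a minimum of 400 counts. Of the 42 genes, 14 had fewer than 100 counts in the HP1 alpha library, so they were listed through the input alone.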

Other observations

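Of the 34 other genes of these pathways, 3 had intervals above 1 and 5 below 1 relative to genes of like span, against 15.6% and 11.4% of all listed genes. All are named here, with their values already known when they were picked. Papd5, a noncanonical poly(A) polymerase of nuclear RNA surveillance, had 93 counts in the HP1 alpha library against 113 in the input and stood at 1.52 (1.15 to 2.02) times genes of like span. Mov10, a helicase that works with Argonaute, had 112 counts against 168 and stood at 1.36 (1.06 to 1.73). Fto stood at 1.17 (1.05 to 1.30). At the other end, Cpeb4, a binder of cytoplasmic polyadenylation elements, had 42 counts against 121 and stood at 0.632 (0.434 to 0.904), although its HP1 alpha count lies where the listing limit alone fixes a plain ratio below 1. Eif4enif1, a partner of the cap-binding protein eIF4E, had 65 counts against 192 and stood at 0.661 (0.491 to 0.880). For Eif4enif1 the listing limit allowed a plain ratio of at most 1.05. Zcchc11, a uridyltransferase gene, had 114 counts against 270 and stood at 0.692 (0.551 to 0.865). Zfc3h1, which links nuclear polyadenylated RNA to the exosome, had 78 counts against 215 and stood at 0.700 (0.533 to 0.911). Zcchc7, a zinc knuckle protein of nuclear RNA surveillance, had 177 counts against 290 and stood at 0.794 (0.655 to 0.960).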
